A study of Saccharomyces cerevisiae with 10 samples.

Results

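The small subunit processome is described here through the mRNA levels of 40 genes that encode its protein factors, taken from 5449 genes measured in *Saccharomyces cerevisiae*. The 40 genes were listed by name, by a rule that uses no measured value though earlier results of these data were known when the list was drawn up, and each was found by its symbol in the platform's probe table as 1 probe set, none of which is marked as shared with other sequences. The U3 RNA itself was not analysed here.

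The samples were diploid yeast pools of barcoded protein-complementation (BC-PCA) strains, in which a pair of proteins carries the fragments of a methotrexate-resistant reductase, so that growth in methotrexate depends on the binding of the pair. All 5 groups share this pool of strains and differ in time: cells grown in dextrose (0 h), and cells given selective medium whose only carbon source was ethanol for 0.5, 1, 4 or 12 h, with 2 Affymetrix arrays a time. The labels call the 2 arrays biological replicates, and nothing says whether they came from separate cultures, so p-values measure the spread between arrays, which may be technical. The sources give the dextrose culture both as selective and as non-selective, so the change of carbon source and the start of methotrexate cannot be told apart in a comparison with 0 h.

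The processome is the large particle that gathers on the newly made ribosomal RNA precursor in the nucleolus and folds, modifies and cuts it to give the RNA of the small ribosomal subunit. Its parts join in an order, with the UtpA complex on the leading end of the precursor, then the UtpB complex and the U3 small nucleolar ribonucleoprotein (snoRNP), whose RNA pairs with the precursor, and then many single factors and enzymes. In yeast the genes for these factors belong to the ribosome biogenesis regulon, which is known for falling and rising with nutrient supply and growth rate.

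The titles of all arrays, also those at 0 h, name ethanol and methotrexate, so the dextrose at 0 h is known from the study's text. Genes with known responses to the carbon source changed after the transfer. ADH2, the alcohol dehydrogenase used to consume ethanol, read 83.8 and 25.9 at 0 h and 12432 and 8141 at 0.5 h, and the low-affinity glucose transporter gene HXT1 fell from 2547 and 3268 to 209 and 376. Between the 2 arrays of a time the correlation over all genes ranged from 0.977 to 0.985, and the array medians over all genes ranged from 321 to 356 in RMA intensity. RMA (robust multiarray analysis) sets all arrays to a like distribution, so every value is a level relative to the other mRNAs, a shift common to all mRNAs is not seen, and less RNA per cell cannot be told apart from fewer cells that express a gene. Intensities of different probe sets depend on the probes, so levels were compared between times of a gene and not between genes.

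The processome mRNAs fell together within 0.5 h of the transfer. Of the 40 members, 39 were lower at 0.5 h than at 0 h and none was higher, by limma with a Benjamini-Hochberg adjusted p under 0.05 over all 5449 genes. Among all genes 32.7% were called lower and 30.1% higher in the same comparison. The median difference of the members was −2.39 on the log2 scale, so that the median member was left with 19.1% of its 0 h level, while the median over all genes was −0.05. The difference was at least 4-fold in 27 members, against 5.63% of all genes, and at least 8-fold in 6 members (DHR2, UTP5, UTP13, UTP6, NOP1 and UTP9), against 0.899% of all genes. Both arrays at 0.5 h lay below both arrays at 0 h for 40 of 40 members, an order found in 42.9% of all genes. Of the 50, 100, 200 and 500 most negative differences among all genes, 6, 10, 21 and 32 belonged to members.

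**Figure D1:**
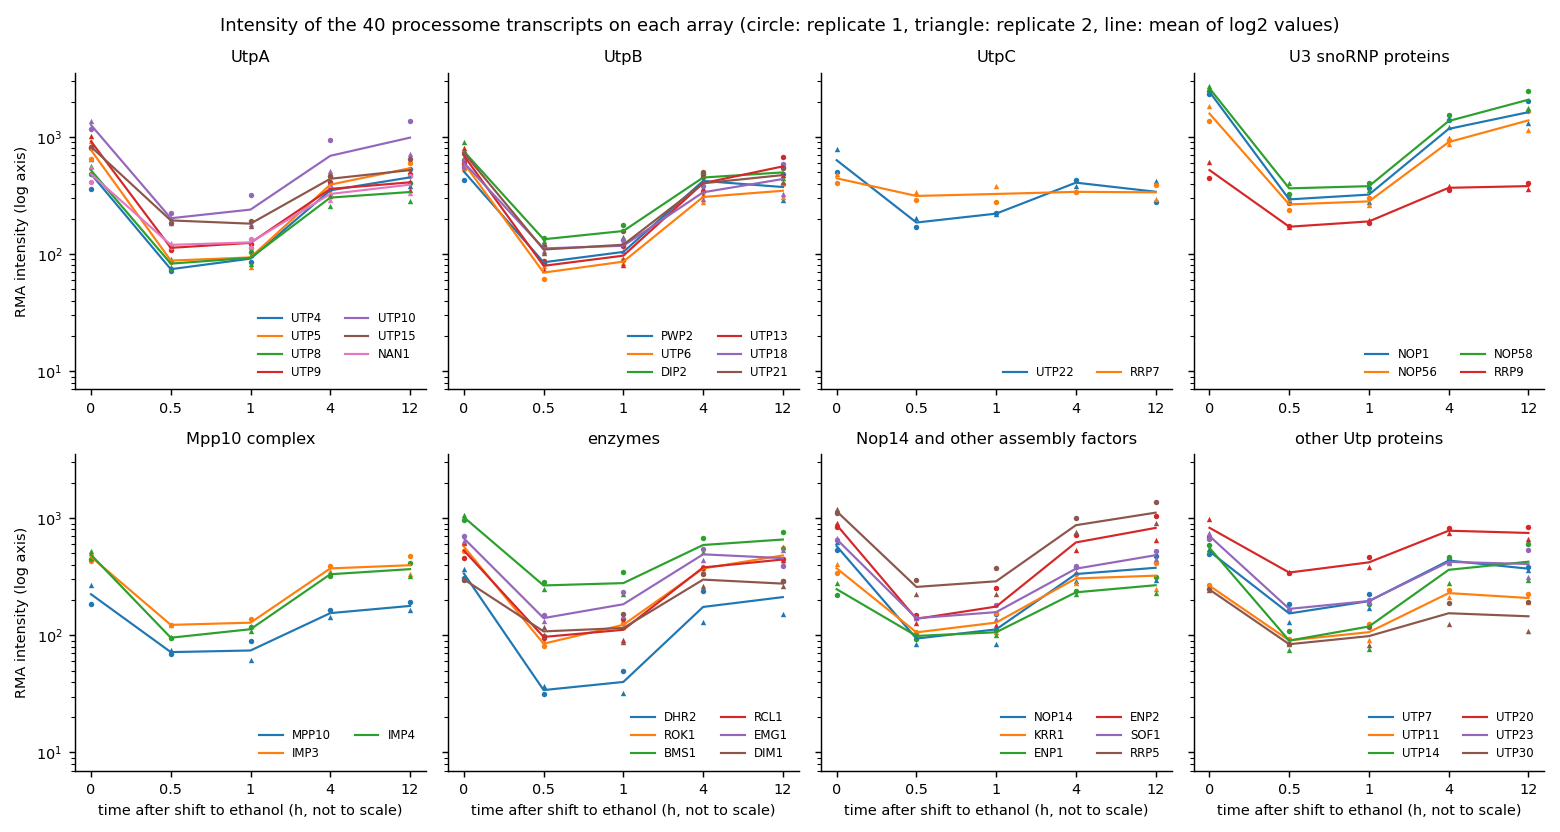
RMA intensity (log axis) of the 40 processome mRNAs at each time after the shift to ethanol (h, not to scale), with 1 panel for each of 8 groups of members, the 2 arrays of a time as points and the mean of the log2 values as a line. The lines fall to 0.5 h, stay low at 1 h and lie higher at 4 h, while that of RRP7 stays nearly level.

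The UtpA complex, the first to bind the precursor, is represented by 7 genes (UTP4, UTP5, UTP8, UTP9, UTP10, UTP15 and NAN1), and all 7 fell at 0.5 h, with differences from −3.13 to −2.01. UTP5 (YDR398W), a core subunit, read 646 and 922 at 0 h, 86.4 and 89.6 at 0.5 h, 113 and 77.3 at 1 h, 465 and 330 at 4 h, and 601 and 487 at 12 h. All 4 arrays of the first hour were far below the arrays of the other times, and no array of UTP5 at a later time reached the 0 h range. The UTP5 difference at 0.5 h was −3.13 ± 0.26 (SE, n = 2 arrays a time, limma adjusted p = 1.22e-05), which is 8.78-fold lower. At 4 h it was −0.98 ± 0.26 (limma adjusted p = 0.014), and at 12 h the −0.51 left did not pass the test (limma adjusted p = 0.14).

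UTP9 (YHR196W), another subunit of UtpA, stayed lowest against its starting level. Its intensities were 820 and 1025 at 0 h, 108 and 118 at 0.5 h, 123 and 127 at 1 h, 412 and 315 at 4 h, and 479 and 351 at 12 h. The arrays at 12 h were both well under those at 0 h, and the mean of UTP9 was 44.7% of the 0 h level. That difference was −1.16 ± 0.21 (limma adjusted p = 0.0018), the most negative of the 40 members at 12 h. UTP15 (YMR093W), a WD-repeat subunit, read 804 and 845 at 0 h, 183 and 205 at 0.5 h, 191 and 174 at 1 h, 465 and 415 at 4 h, and 649 and 418 at 12 h. It was the single member with its lowest mean at 1 h, and its arrays at 12 h were far apart while both were below those at 0 h. The fit gave UTP15 a difference of −2.09 ± 0.21 at 0.5 h (limma adjusted p = 3.32e-05) and of −0.66 ± 0.21 at 12 h (limma adjusted p = 0.0287).

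The UtpB complex bridges the bound precursor and the U3 snoRNP, and its 6 genes (PWP2, UTP6, DIP2, UTP13, UTP18 and UTP21) fell over a narrow range at 0.5 h, from −3.13 to −2.43, with a median of −2.66. UTP13 (YLR222C), one of its WD-repeat proteins, read 599 and 802 at 0 h, 86.6 and 72.8 at 0.5 h, 116 and 80.7 at 1 h, 452 and 359 at 4 h, and 668 and 471 at 12 h. At 12 h its first array lay between the arrays at 0 h, so the groups overlapped. UTP13 was 8.73-fold lower at 0.5 h (−3.13 ± 0.26, limma adjusted p = 1.17e-05), and its rise of 2.82 from 0.5 h to 12 h on the log2 scale was the largest of the members. UTP6 (YDR449C) encodes a UtpB subunit with repeats of the kind found in RNA processing factors. Its arrays gave 535 and 668 at 0 h, 60.9 and 79.2 at 0.5 h, 88.3 and 84.2 at 1 h, 339 and 279 at 4 h, and 396 and 305 at 12 h. No array of UTP6 after the transfer reached either array at 0 h. The differences were −3.10 ± 0.21 at 0.5 h (limma adjusted p = 5.06e-06) and −0.78 ± 0.21 at 12 h (limma adjusted p = 0.0138).

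DIP2 (YLR129W), also known as UTP12, read 633 and 898 at 0 h, 138 and 130 at 0.5 h, 178 and 139 at 1 h, 485 and 418 at 4 h, and 556 and 446 at 12 h. Its 12 h arrays were both below the lower 0 h array, by a margin smaller than the gap between the 0 h arrays. The DIP2 difference was −2.49 ± 0.22 at 0.5 h (limma adjusted p = 1.53e-05) and −0.60 ± 0.22 at 12 h (limma adjusted p = 0.0489).

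The U3 snoRNP is the guide particle whose RNA chaperones the folding of the precursor, and the members hold 4 of its protein genes. All 4 fell at 0.5 h, with differences from −3.05 to −1.61. NOP1 (YDL014W), the methyltransferase known as fibrillarin in animals, read 2314 and 2551 at 0 h, 274 and 314 at 0.5 h, 369 and 281 at 1 h, 1394 and 985 at 4 h, and 2018 and 1314 at 12 h. The arrays at 0.5 and 1 h were close to each other, and those at 4 and 12 h lay between them and the 0 h arrays. NOP1 was 8.29-fold lower at 0.5 h (−3.05 ± 0.25, limma adjusted p = 1.23e-05). NOP58 (YOR310C), a core protein of all box C/D snoRNPs, read 2481 and 2736 at 0 h, 327 and 405 at 0.5 h, 408 and 354 at 1 h, 1551 and 1207 at 4 h, and 2452 and 1766 at 12 h. Its first 12 h array came close to the lower 0 h array without reaching it. NOP58 was 7.16-fold lower at 0.5 h (−2.84 ± 0.21, limma adjusted p = 8.22e-06) and differed by −0.32 ± 0.21 at 12 h (limma adjusted p = 0.25). Its partner NOP56, the other core scaffold, differed by −2.58 at 0.5 h, while RRP9, the protein that binds U3 and no other box C/D RNA, differed by −1.61. All 4 of these members were still lower at 4 h (limma adjusted p from 0.0073 to 0.0451), and none passed at 12 h.

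The small UtpC complex, which also holds casein kinase 2 subunits, is represented by UTP22 and RRP7, of which only UTP22 was called lower at 0.5 h. UTP22 (YGR090W), its large subunit, read 503 and 797 at 0 h, 169 and 204 at 0.5 h, 222 and 221 at 1 h, 431 and 385 at 4 h, and 276 and 420 at 12 h. It differed from most members in that its mean was lower at 12 h than at 4 h, and its lower array at 12 h was closer to the arrays at 1 h than to those at 4 h. The UTP22 difference was −1.77 ± 0.26 at 0.5 h (limma adjusted p = 0.000278), −0.64 ± 0.26 at 4 h (limma adjusted p = 0.0754) and −0.89 ± 0.26 at 12 h (limma adjusted p = 0.0198).

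RRP7 (YCL031C), the partner of UTP22 in this complex, was the single member not called lower at 0.5 h. Its arrays gave 408 and 483 at 0 h, 289 and 341 at 0.5 h, 277 and 384 at 1 h, 336 and 344 at 4 h, and 386 and 294 at 12 h. Every later array of RRP7 lay below both arrays at 0 h, but the values of 0.5, 1, 4 and 12 h overlapped each other. The RRP7 difference at 0.5 h was −0.50 ± 0.21 (limma adjusted p = 0.062), or 70.7% of the 0 h level, and that at 1 h was −0.44 ± 0.21 (limma adjusted p = 0.0916). It passed when the fit held only the arrays of 0 and 0.5 h (adjusted p = 0.0477, limma).

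The Mpp10 complex, which holds the U3 RNA against the precursor, is represented by MPP10, IMP3 and IMP4, and the 3 genes fell at 0.5 h, with differences of −1.64, −1.93 and −2.35. IMP4 (YNL075W), an RNA-binding subunit, read 450 and 524 at 0 h, 94.4 and 96.2 at 0.5 h, 117 and 108 at 1 h, 322 and 342 at 4 h, and 418 and 322 at 12 h. Its arrays agreed closely within the first hour, and all later ones stayed under the 0 h arrays. IMP4 was 5.09-fold lower at 0.5 h (−2.35 ± 0.17, limma adjusted p = 6.92e-06) and differed by −0.40 ± 0.17 at 12 h (limma adjusted p = 0.0845).

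The 6 enzymes and enzyme-like factors fell at 0.5 h, with differences from −3.31 to −1.48. DHR2 (YKL078W), a DEAH-box RNA helicase, had the largest fold of all 40 members, with 309 and 367 at 0 h, 31.4 and 36.9 at 0.5 h, 49.3 and 32.4 at 1 h, 236 and 129 at 4 h, and 293 and 153 at 12 h. All arrays of 0.5 and 1 h were far below those of the other times, and the arrays at 4 and 12 h were far apart. DHR2 was 9.89-fold lower at 0.5 h (−3.31 ± 0.36, limma adjusted p = 5.42e-05), and its difference at 12 h was −0.67 ± 0.36 (limma adjusted p = 0.168). ROK1, a DEAD-box helicase, and RCL1, a cyclase-like protein that binds the GTPase BMS1, differed by −2.75 and −2.45 at 0.5 h. The methyltransferase gene EMG1 differed by −2.26, BMS1 by −1.93, and DIM1, the dimethylase that acts late on the same RNA, by −1.48.

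NOP14 and the other assembly factors (KRR1, ENP1, ENP2, SOF1 and RRP5) fell at 0.5 h, with differences from −2.66 to −1.33. ENP2 (YGR145W), a WD-repeat factor, read 836 and 916 at 0 h, 149 and 128 at 0.5 h, 251 and 123 at 1 h, 725 and 531 at 4 h, and 1047 and 651 at 12 h. The 12 h arrays lay on either side of the 0 h arrays, and the 1 h arrays were also well apart. ENP2 was 6.34-fold lower at 0.5 h (−2.66 ± 0.34, limma adjusted p = 0.000122) and differed by −0.08 ± 0.34 at 12 h (limma adjusted p = 0.868). The smallest change of this group was that of ENP1, which travels with the particle out of the nucleus, at −1.33. RRP5, which acts in the assembly of both subunits, differed by −2.15.

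The other Utp proteins (UTP7, UTP11, UTP14, UTP20, UTP23 and UTP30) had the smallest median difference among the groups with all members called, −1.66. UTP14 (YML093W), the activator of the processome helicase Dhr1, read 587 and 529 at 0 h, 109 and 74.5 at 0.5 h, 185 and 76.3 at 1 h, 468 and 280 at 4 h, and 606 and 298 at 12 h. Its first array was the higher at every time, and at 12 h the arrays lay on either side of the 0 h arrays. The UTP14 difference at 0.5 h was −2.63 ± 0.46 (limma adjusted p = 0.000778), the largest error of the 40 members.

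UTP23 (YOR004W), a protein with a PIN-like domain that binds the snR30 RNA, read 661 and 748 at 0 h, 165 and 171 at 0.5 h, 200 and 193 at 1 h, 434 and 413 at 4 h, and 530 and 312 at 12 h. Its arrays were nearly equal up to 4 h and well apart at 12 h, where both were below those at 0 h. The UTP23 difference was −2.07 ± 0.23 at 0.5 h (limma adjusted p = 5.45e-05) and −0.79 ± 0.23 at 12 h (limma adjusted p = 0.0193). UTP30 (YKR060W), a factor that yeast can live without, read 248 and 244 at 0 h, 84.0 and 83.6 at 0.5 h, 117 and 83.0 at 1 h, 189 and 126 at 4 h, and 193 and 109 at 12 h. After the fall its later arrays overlapped those at 1 h in part. UTP30 differed by −1.55 ± 0.29 at 0.5 h (limma adjusted p = 0.00125) and by −0.76 ± 0.29 at 12 h (limma adjusted p = 0.0608). UTP20, a long helical-repeat protein, had the second smallest change of the 40 at 0.5 h, −1.27.

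**Figure D2:**
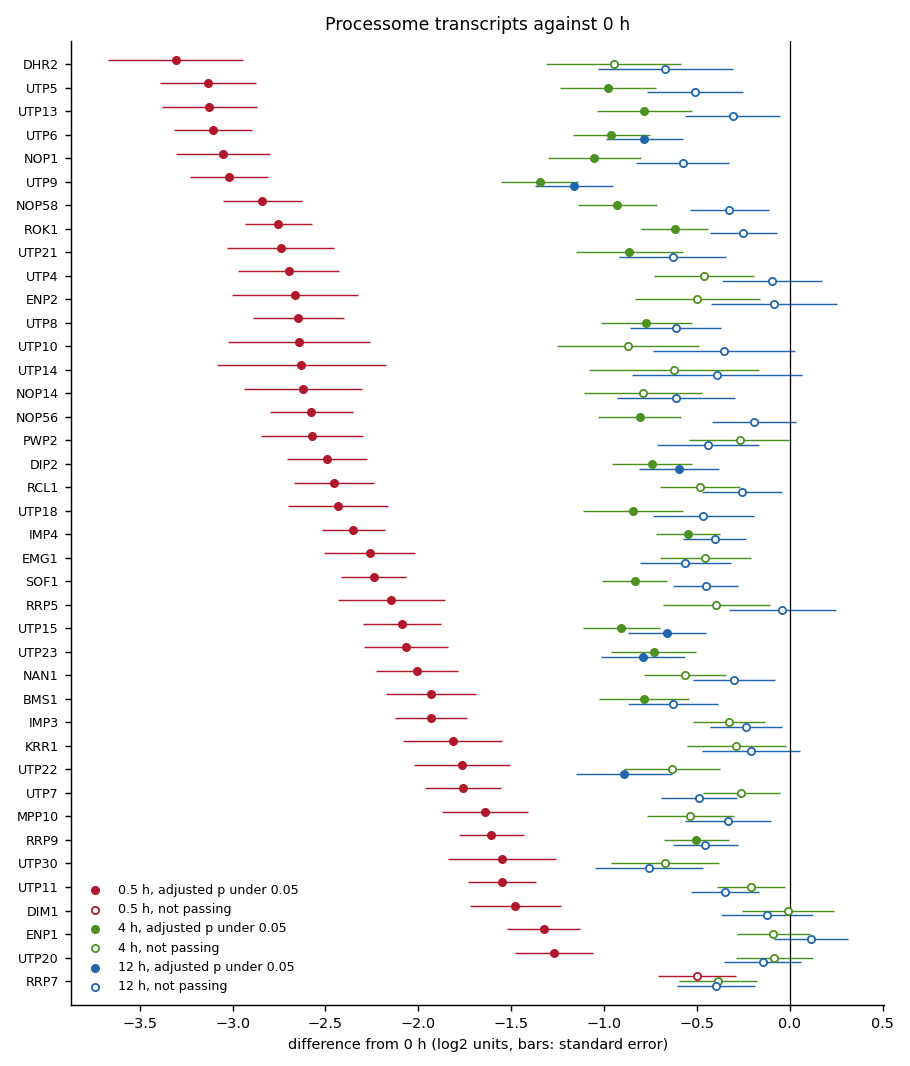
Fitted difference of each of the 40 processome mRNAs from 0 h (x axis, log2 units, bars: standard error of the limma fit) at 0.5, 4 and 12 h, ordered by the value at 0.5 h, with filled points for an adjusted p under 0.05. The 0.5 h points run from −3.31 for DHR2 to −0.50 for RRP7, and 18 points at 4 h and 6 at 12 h are filled.

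The low levels held through the first hour. At 1 h, 39 members were called lower than at 0 h (all genes: 33.4%), with a median difference of −2.20, and RRP7 was again the exception. Between 0.5 and 1 h no member and none of the 5449 genes was called by limma (0% of all genes). At an unadjusted p under 0.05 the limma fit held 1 member higher and 0 lower, and among all genes 61 higher and 29 lower. The 1 member was ROK1, named for that reason after its value was seen, with a difference of 0.54. The median of the members was 0.21, and it was −0.014 without the first array of 1 h.

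The members rose between 1 and 4 h. In that interval 38 of 40 were called higher, with a median difference of 1.53, against 14.5% of all genes. The largest rises were those of DHR2 (2.13 ± 0.36, limma adjusted p = 0.00391), UTP5 (2.06 ± 0.26, limma adjusted p = 0.00142) and UTP13 (2.06 ± 0.26, limma adjusted p = 0.00142). RRP7 and UTP30 were the members not called, at 0.06 (limma adjusted p = 0.864) and 0.65 (limma adjusted p = 0.13). Over the whole span from 0.5 to 12 h the rise was smallest in RRP7 (0.10), UTP30 (0.79) and UTP22 (0.87).

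At 4 h the median member stood at 64.6% of its 0 h level, and 18 of 40 were still called lower (median difference −0.63, all genes 23.2%). These were 4 of 7 UtpA genes (UTP5, UTP8, UTP9 and UTP15), 5 of 6 UtpB genes (all but PWP2) and the 4 U3 snoRNP members. The others were IMP4, ROK1, BMS1, SOF1 and UTP23. Both 4 h arrays were below both 0 h arrays in 35 members, an order found in 42.2% of all genes. The count of 18 depended on single arrays: it was 3 without the second array of 4 h and 5 without the second array of 0 h. It was 2 (UTP9 and NOP1) when a difference of at least 1 on the log2 scale was also asked for. With the replicate number as a block the count was above 18, at the value given in the last paragraph.

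At 12 h the median member stood at 74.6% of its 0 h level, with a median difference of −0.42. The fitted difference was below 0 in 39 members and was 0.11 in ENP1 (limma adjusted p = 0.68). Of the 40, 6 were called lower (UTP9, UTP22, UTP23, UTP6, UTP15 and DIP2) and none higher, while 22.0% of all genes were called lower and 21.4% higher. Both 12 h arrays were below both 0 h arrays in 24 members, against 36.7% of all genes. The mean at 12 h was within 25% of that at 0 h in 20 members, and 5 members were lower at both 4 and 12 h. Neither count was made over all genes, whose differences at 12 h had quartiles of −0.50 and 0.46. Neither is therefore read as a result about the members. UTP9 was called under every alternative, and each of the other 5 lost its call under at least 1. The count at 12 h was 1 without the second array of 0 h, 2 without the second array of 12 h and 11 without the first array of 12 h. It was 10 with quantile normalization, 12 with each array centred on its median and 2 with a fit of 0 and 12 h alone. With the replicate number as a block it was also above 6, at the value given in the last paragraph. No order between the share of members called and that of all genes was therefore read from this count.

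From 4 to 12 h no member was called (all genes higher: 6.83%), and at an unadjusted limma p under 0.05 there were 2 members higher and 0 lower, and among all genes 805 higher and 705 lower. Those 2 were the snoRNP core genes NOP58 (0.60, limma adjusted p = 0.103) and NOP56 (0.62, limma adjusted p = 0.111), of which NOP56 is named after its value was seen. The median of 0.19 became −0.035 without the first array of 12 h, and 2 members were called without the second array of 12 h.

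At most times the members read differently on the 2 arrays. The first array read higher than the second in 36 of 40 members at 1 h, in 36 at 4 h and in 38 at 12 h, with median differences of 0.40, 0.29 and 0.47 on the log2 scale, while the medians over all genes were −0.0037, 0.0041 and 0.14. At 0 h the order was the other way, with the first array higher in 4 of 40 and a median of −0.23 against 0.016 over all genes. At 0.5 h the median was −0.024. Their part in the counts at 4 and 12 h is given by the values without each array.

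**Figure D3:**
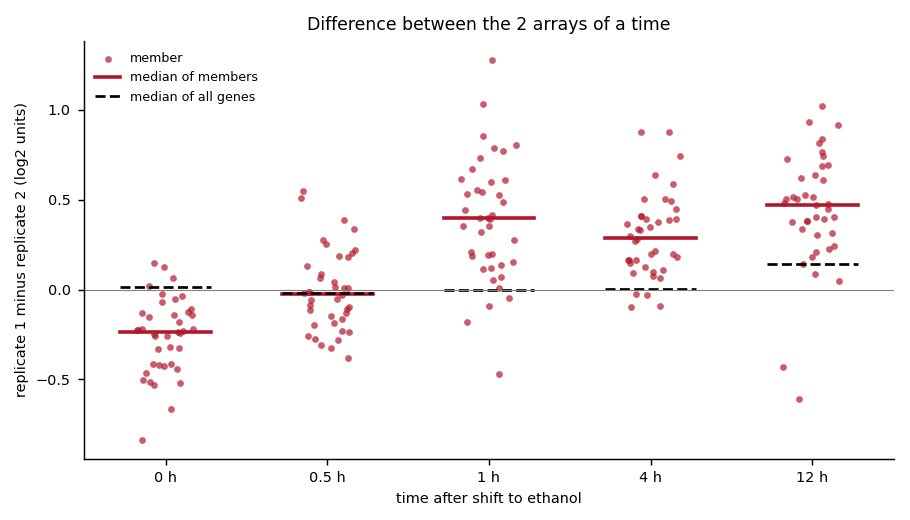
Difference between the first and the second array of each time (y axis, log2 units) for the 40 members, with 1 point a gene, a solid line at the members' median and a dashed line at the median of all 5449 genes. The points lie mostly below 0 at 0 h and mostly above 0 at 1, 4 and 12 h, where the members' medians are 0.40, 0.29 and 0.47.

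Most lists of genes that act beside these 40 also fell at 0.5 h, with the exception of the casein kinase 2 subunits. The counts that follow are limma calls, beside 32.7% of all genes called lower at 0.5 h. Of 26 other factors of the early particle, 26 fell at 0.5 h (median −2.13), led by NSR1, the yeast nucleolin, at −4.63 ± 0.30 (limma adjusted p = 4.5e-06), whose arrays went from 1767 and 2214 at 0 h to 58.9 and 108 at 0.5 h. Late maturation factors of the small subunit fell in 9 of 9 (median −1.52), with the helicase gene PRP43 at −3.28 (limma adjusted p = 4.22e-05). The 4 H/ACA snoRNP genes, which serve pseudouridine formation, fell in 4 of 4 (median −1.94), with CBF5, the pseudouridine synthase, at −2.35 (limma adjusted p = 2.22e-05). The casein kinase 2 subunits, which join UTP22 and RRP7 in UtpC, gave 0 of 4 called by limma at 0.5 h, with CKA1 at −0.32, CKA2 at −0.15, CKB1 at 0.52 and CKB2 at 0.04. CKB1 was higher at 12 h (0.66, limma adjusted p = 0.0385), as were 21.4% of all genes.

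The lists for the large subunit and for the polymerase that makes the precursor were set beside the members as well. Their counts at 0.5 h are again limma calls, beside 32.7% of all genes called lower. Large subunit assembly factors fell at 0.5 h in 65 of 69 genes (median −2.18), with the largest fall in RIX1 (−4.10 ± 0.42, limma adjusted p = 3.97e-05), and RNA polymerase I subunits in 7 of 7 (median −2.78), with the largest in RPA49 (−3.51, limma adjusted p = 5.06e-06). The large subunit genes not called were RRP15, TIF6, TMA16 and ACL4. Cytosolic ribosomal proteins fell in 122 of 127 (median −1.30), with RPL22B at −2.99 (limma adjusted p = 3.79e-06). The ribosomal protein median at 0.5 h was thus less negative than that of the members, a description for which no test was made. At 12 h the medians were −0.34 for the large subunit factors, −0.55 for polymerase I and −0.10 for ribosomal proteins, beside −0.42 for the members. The 26 other factors of the early particle had a median of −0.48 at 12 h.

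Calls at 12 h were 15 lower and 1 higher of 69 for the large subunit factors, 1 lower of 7 for polymerase I, and 4 lower and 4 higher of 127 for ribosomal proteins, beside 22.0% lower and 21.4% higher of all genes. Of the 26 other factors of the early particle, 9 were called lower and 0 higher. DBP2, an RNA helicase, was the 1 large subunit factor called higher, while 59 of the 69 had a difference below 0. DBP2 read 487 and 579 at 0 h, 26.0 and 45.6 at 0.5 h, and 1565 and 809 at 12 h (1.08, limma adjusted p = 0.0306). The ribosomal protein genes higher at 12 h were RPS22B (2.37), RPS9A (1.86), RPL9B (0.88) and RPL41A (0.76). No member of the processome list was called higher than at 0 h at any time.

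**Figure D4:**
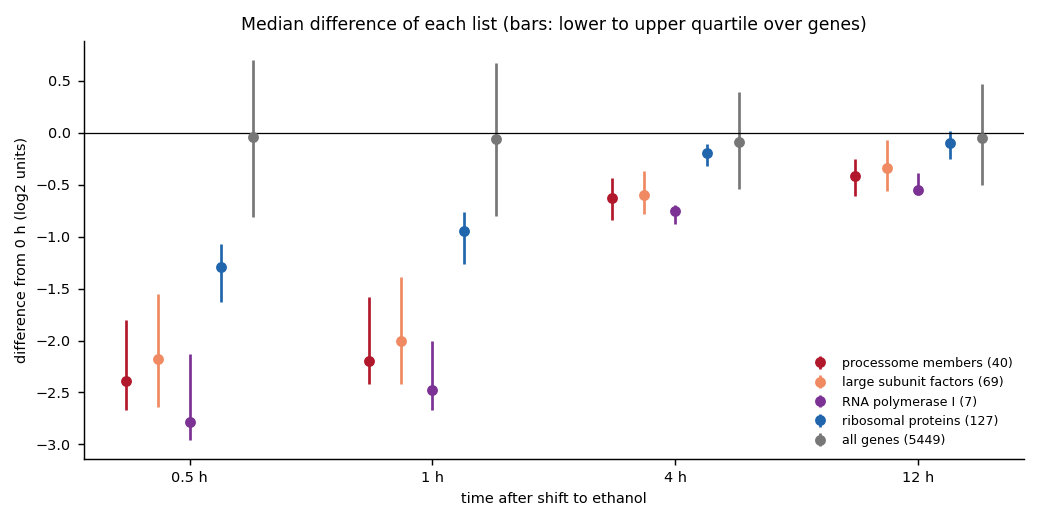
Median difference from 0 h (y axis, log2 units, bars: lower to upper quartile over genes) at 0.5, 1, 4 and 12 h for the 40 processome members, 69 large subunit factors, 7 RNA polymerase I subunits, 127 ribosomal proteins and all 5449 genes. The processome median goes from −2.39 at 0.5 h to −0.42 at 12 h, and that of all genes stays between −0.09 and −0.05.

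Among 10 regulators of ribosome biogenesis genes, the repressors and activators did not move as 2 blocks. TOD6 (YBL054W), a repressor that binds the PAC element upstream of these genes, read 540 and 679 at 0 h, 61.3 and 69.5 at 0.5 h, 76.1 and 55.4 at 1 h, 314 and 249 at 4 h, and 358 and 207 at 12 h. Its course was like that of the members, with no overlap between 0 h and any later time, and it was lower by limma at 0.5 h (−3.21, adjusted p = 1.47e-05) and at 12 h (−1.15, adjusted p = 0.0082). Its paralog DOT6 differed by −0.01 at 0.5 h (limma adjusted p = 0.966). STB3 (YDR169C), the repressor of the RRPE element, read 397 and 482 at 0 h and 764 and 1179 at 0.5 h, and was higher by 1.12 (limma adjusted p = 0.0070). Both 0.5 h arrays of STB3 were above both 0 h arrays, and at 12 h its difference was 0.17 (limma adjusted p = 0.675).

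CRF1 (YDR223W), a corepressor of ribosomal protein genes, read 57.7 and 46.2 at 0 h, 469 and 237 at 0.5 h, 446 and 550 at 1 h, 140 and 151 at 4 h, and 154 and 103 at 12 h. It was highest in the first hour, when the members were lowest, and remained above its 0 h arrays throughout. CRF1 was higher by 2.69 at 0.5 h (limma adjusted p = 7.73e-05) and by 1.29 at 12 h (limma adjusted p = 0.0090). IFH1, the coactivator of ribosomal protein genes, fell by 1.56 at 0.5 h (limma adjusted p = 0.000116) and was still lower at 12 h (−0.70, limma adjusted p = 0.017). The kinase gene SCH9 (0.79), the DNA-binding factor gene TBF1 (0.79) and RRN3 (0.78), which brings polymerase I to its promoter, were higher at 0.5 h with limma adjusted p of 0.0169, 0.0048 and 0.0143. The activator genes SFP1 (−0.25) and FHL1 (0.11) were not called at any of these times against 0 h.

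**Figure D5:**
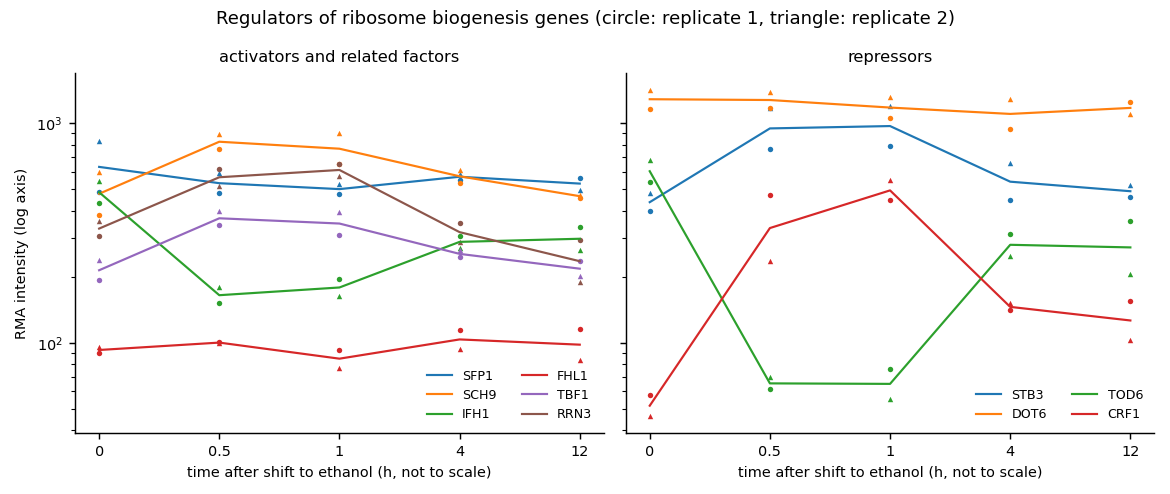
RMA intensity (log axis) of 10 regulators of ribosome biogenesis genes by time after the shift (h, not to scale), with the 2 arrays of a time as points and the mean of the log2 values as a line, in 1 panel for activators and related factors and 1 for repressors. TOD6 and IFH1 lie low at 0.5 and 1 h, while CRF1 and STB3 lie high.

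Direct neighbours on the chromosomes were looked for among the members and the lists above other than the ribosomal proteins, which were not searched. Of the members, 3 had such a neighbour, in 4 pairs. All 4 pairs lay on the same strand, and no pair joined 2 members. UTP9 lies beside RIX1, and the pair was lower both at 0.5 h (−3.02 and −4.10) and at 12 h (−1.16 and −1.28). NOP56 lies beside PWP1, which differed by −2.38 at 0.5 h. UTP13 lies between RSA3 and IFH1, which differed by −1.18 and −1.56 where UTP13 differed by −3.13.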

How the data were processed

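Total RNA was hybridised to Affymetrix arrays at 5 times with 2 arrays each. The authors read the arrays with MAS 5.0 and adjusted, normalized and summarised them by RMA from BioConductor (version: not given in the sources used here). What they deposited is a table of 5716 probe sets in linear RMA intensity, and all of its array columns were used. For this report the log2 was taken with no further scaling or filter. Genes were assigned through the platform's probe table (5498 with 1 symbol, 218 unnamed, 12 symbols updated through the RefSeq gene table of assembly R64, which also gave neighbours). The brightest probe set of a gene was kept, which set 49 aside and left 5449 genes. For arrays, their number limits the precision.

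Differences came from 1 joint model of the 10 arrays, fitted with limma 3.58.1 under R 4.3.3 (5 residual degrees of freedom, prior 4.33 degrees of freedom and SD 0.197), with 7 comparisons between times and Benjamini-Hochberg adjustment over 5449 genes in each. The procedure was tested on simulated data. Values on every array are given for the member with the most negative difference at 0.5 h in each of 8 groups, members not called at 0.5 h or called at 12 h, those with the 3 largest and 3 smallest rises from 0.5 to 12 h, and the dimmest and brightest. Other genes are named from fixed lists by their largest called difference at 0.5 h or a direction against the list, and regulators all are. The members and lists were chosen with earlier results of these data known. Alternatives were quantile normalization, median centring, a filter on dim genes, an offset of 32, an intensity trend, averaging of probe sets, a replicate block, fits of 2 times, a minimum of 1 on the log2 scale and leaving out each array. Promoter and protein sequences were not used here.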

Additional observations from a re-analysis of the deposited data

How the results depend on the processing

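The fall at 0.5 and 1 h and the rise from 1 to 4 h kept their direction and stayed within 1.5 times the reported counts under all alternatives run. With an offset of 32 before the log the median member difference was −2.08 at 0.5 h and −1.95 at 1 h, since an offset shrinks the differences of dim genes. Leaving out single arrays gave a median at 1 h of −2.29 to −1.90, between 0.5 and 1 h of −0.014 to 0.37, between 1 and 4 h of 1.25 to 1.69, and between 4 and 12 h of −0.035 to 0.42. The sign turned without the first array of 1 h (−0.014) and without the first array of 12 h (−0.035). The counts of members called lower were less stable. Asking for a difference of at least 1 on the log2 scale left 2 at 4 h and 1 at 12 h. At 12 h quantile normalization gave 10, centring of each array on its median 12, and a fit of 0 and 12 h alone 2. Without single arrays the count was 3 to 16 at 4 h, 1 to 11 at 12 h and 0 to 2 between 4 and 12 h. Why these counts moved was not tested. In refits of single members at 0.5 h, 555 of 557 kept their call, and the other 2 were gains of RRP7. At 12 h, 20 of 84 refits of the 6 called members lost the call, in 5 of them.

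The labels number the arrays 1 and 2 at each time. Deviations of same-numbered arrays correlated at 0.0267 to 0.565 between times, not above 0.1 for every pair of times, so the numbers were not taken as pairs. With the replicate number as a block, against 0 h the members called lower numbered 40 (0.5 h), 39 (1 h), 23 (4 h) and 13 (12 h), and 39 were called higher from 1 to 4 h, with 0 between 0.5 and 1 h and between 4 and 12 h. RRP7 then passed at 0.5 h (limma adjusted p = 0.0495). As a hint from the data only, all 10 correlations were above 0. An alternative chosen after seeing the data, without probe sets marked as shared, gave 6 members at 12 h as before. With the dimmest genes left out, 36 members were called at 0.5 h, as 3 members were not tested. With 2 arrays a time, differences within the spread of the arrays were not detectable.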
